A study of Mus musculus with 12 samples.

Results

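The 10 genes described here are 4 simple epithelial keratins (*Krt7*, *Krt8*, *Krt18* and *Krt19*) and 6 claudins (*Cldn2*, *Cldn3*, *Cldn4*, *Cldn7*, *Cldn12* and *Cldn18*), taken by symbol from the 39017 genes of the count table. RNA was sequenced from 12 mouse lung tumors in 4 groups of 3, each depleted of immune cells with anti-CD45 beads. Every mouse was C57BL6/J, carried K-rasLSL-G12D/WT, p53Fl/Fl and the CCSP-rtTA transgene, and received 6000 viral units of the same lentivirus (Lenti.TRE-PPARaD13_PGK-Cre) into the trachea. That vector carries Cre, which starts the tumors, and PPARαΔ13, a dominant negative form of the fatty acid receptor PPARα that is made only when rtTA binds doxycycline. CCSP is a promoter of airway club cells, which limits the cells that can make rtTA. KP and KP-PPARαΔ13 mice (labelled KP_PPARaDN) were wild type for Glut1, the glucose transporter encoded by *Slc2a1*, while KPG1 and KPG1-PPARαΔ13 mice (labelled KPG1_PPARaDN) carried Glut1Fl/Fl. KP-PPARαΔ13 and KPG1-PPARαΔ13 mice ate doxycycline at 625 mg/kg for 15 days and the others a regular diet, so that diet and induction cannot be told apart. All tumors were taken 26 weeks after initiation, and the age of the mice is not given in the sources used here. A number in the labels that seems to name the animal gives 9 mice for the 12 tumors, 3 in KP-PPARαΔ13 and 2 in each other group. By it, replicates 1 and 2 of KP, 1 and 2 of KPG1, and 1 and 3 of KPG1-PPARαΔ13 each shared a mouse. Sex was uneven, with 3 females in KP, 3 males in KPG1, 1 female and 2 males in KP-PPARαΔ13, and 2 females and 1 male in KPG1-PPARαΔ13.

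Keratins are intermediate filament proteins that assemble from a type I and a type II chain, and the simple epithelium of the lung uses the type II chains Krt7 and Krt8 with the type I chains Krt18 and Krt19. Claudins are membrane proteins of the tight junction that set which ions and molecules pass between epithelial cells, some sealing the junction and others, such as Cldn2, forming pores for cations. Cldn18 is a principal claudin of the alveolar epithelium, and Cldn3, Cldn4 and Cldn7 occur widely in airway, alveolar and gut epithelia.

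Of the keratin genes, 3 lie on 1 stretch of chromosome 15 in mm10. *Krt7* (chr15:101411043-101430313, plus strand) is followed by *Krt8* (chr15:101996698-102004482, minus strand) and *Krt18* (chr15:102028180-102032027, plus strand), which are 23697 bp apart. *Krt19* lies on another chromosome (chr11:100140810-100148665, minus strand). Neighbours also occur among the claudins, where *Cldn4* (chr5:134945119-134946934, minus strand) and *Cldn3* (chr5:134986214-134987472, plus strand) are 1-exon genes 39279 bp apart. *Cldn12* lies far off on the same chromosome (chr5:5489537-5514958, minus strand). *Cldn7* is at chr11:69964779-69967885 (plus strand), *Cldn18* at chr9:99689461-99717267 (minus strand) and *Cldn2* at chrX:139800828-139811386 (plus strand). Antisense or non-coding genes overlap exons of *Krt7* (Gm671), *Krt8* (Gm36026) and *Cldn3* (Wbscr25). The library kit marks strand, but the strand setting of the counting is not given in the sources used here, so reads of those partners cannot be told apart from the members' own. Wbscr25 itself was counted at 1.03 CPM or less in every tumor. How reads matching several places, such as pseudogene copies, were counted is likewise not given in the sources used here.

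The sequences before the start sites are shown for the keratins on chromosome 15, which rose and fell together from tumor to tumor, and for *Cldn4*, which had the largest difference between KP-PPARαΔ13 and KP of the 10 genes. RefSeq entries on GRCm38.p6 were found for 9 of the 10 genes, *Krt19* being the exception. For the keratins shown, the RefSeq start lies inside the gene bounds given above. The bases shown for *Krt7* thus fall within those bounds, and those for *Krt8* and *Krt18* partly do. Each line holds the 250 bases before the RefSeq start, 5′ to 3′ on the gene's strand, with 2 motifs in capitals, TGANTCA (the AP-1 motif) and the E-box CACCTG or its reverse complement CAGGTG.
Krt7, chr15:101412153-101412402, plus strand: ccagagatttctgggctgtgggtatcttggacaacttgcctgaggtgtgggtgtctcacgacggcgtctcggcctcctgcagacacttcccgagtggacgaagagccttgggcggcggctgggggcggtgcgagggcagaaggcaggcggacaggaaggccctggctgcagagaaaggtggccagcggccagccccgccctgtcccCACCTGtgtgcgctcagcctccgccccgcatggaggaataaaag
Krt8, chr15:102004343-102004592, minus strand: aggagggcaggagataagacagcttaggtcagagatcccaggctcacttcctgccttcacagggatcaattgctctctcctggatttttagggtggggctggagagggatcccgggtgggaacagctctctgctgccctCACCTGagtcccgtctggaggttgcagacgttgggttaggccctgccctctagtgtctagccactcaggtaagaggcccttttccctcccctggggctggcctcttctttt
Krt18, chr15:102027966-102028215, plus strand: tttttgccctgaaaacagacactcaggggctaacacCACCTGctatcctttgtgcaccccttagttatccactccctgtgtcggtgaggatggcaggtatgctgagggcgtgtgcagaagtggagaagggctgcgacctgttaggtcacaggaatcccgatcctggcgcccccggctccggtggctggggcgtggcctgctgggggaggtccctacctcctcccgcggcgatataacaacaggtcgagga
Cldn4, chr5:134946935-134947184, minus strand: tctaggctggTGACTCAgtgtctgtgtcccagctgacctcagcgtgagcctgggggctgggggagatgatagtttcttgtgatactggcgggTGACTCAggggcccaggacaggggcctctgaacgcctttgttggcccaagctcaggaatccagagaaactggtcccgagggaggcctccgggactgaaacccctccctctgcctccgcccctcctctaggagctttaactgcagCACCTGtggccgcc
Searched on both strands, TGANTCA was found at 2 places upstream of *Cldn4*, at positions -240 and -158 counted from the start, and upstream of no other matched member. Of 32851 RefSeq promoter windows of the same length, 6.75% held it. The E-box CACCTG was found in the windows of *Krt7* (-44), *Krt8* (-111), *Krt18* (-214) and *Cldn4* (-14), in the second of 2 windows of *Cldn7*, and in 17.2% of all windows. AGGTCA, the core letters bound by nuclear receptors, was found in those of *Krt8*, *Krt18*, *Cldn4* and *Cldn7* and in 14.0% of all windows. The GC box GGGCGG was found for *Krt7*, *Cldn3*, *Cldn4*, *Cldn7* and *Cldn12* (32.7% of all windows), and TATAAA for *Cldn2* alone (12.4%). AACCNGTT, the motif of Grainyhead-like factors, was found for no matched member (1.79% of all windows). These are matches of letters and no record of binding. *Cldn18* has 2 RefSeq starts, with windows at chr9:99717268-99717517 and chr9:99710064-99710313. Lung and stomach forms of this claudin begin at separate first exons, and a count per gene does not tell them apart.

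The total count per tumor was 25263794 to 32654223, and all 10 members were well above the filter on low counts, the lowest value of any being 30.5 CPM (*Cldn4* in KP replicate 2). CPM here is the number of reads on a gene scaled to a fixed total of counted reads after TMM scaling. With counts at this level, the spread between tumors and not counting error set the precision. The CD45-negative fractions had the marks of alveolar epithelium, with *Sftpc*, the surfactant gene of type 2 cells, between 5540 and 29952 CPM, and *Epcam* between 298 and 623 CPM. The leukocyte gene *Ptprc* was counted at 1.88 to 31.5 CPM and the basal keratin *Krt5* at 0.677 CPM or less. *Krt14*, also a basal keratin, was at 26.1 CPM in KP-PPARαΔ13 replicate 2 and at 5.38 CPM or less in the other tumors. In a bulk sample, fewer cells of a type and less RNA per cell cannot be told apart. As design checks, *Slc2a1* was at 30.2 to 64.0 CPM in KPG1 and 35.3 to 57.7 CPM in KP, while *Ppara*, whose count can include the transgene, ran from 2.71 to 246 CPM in KP-PPARαΔ13. *Slc2a1* thus did not separate the regular diet groups, while under doxycycline it was at 108 to 153 CPM in KP-PPARαΔ13, above the 23.7 to 54.5 CPM of KPG1-PPARαΔ13, although a count over a whole gene does not show which exons were lost. The *Ppara* count was not raised in KP-PPARαΔ13 replicate 1, and at 8.90 to 19.2 CPM in KPG1-PPARαΔ13 it overlapped the 7.24 to 15.3 CPM of KPG1. Group names are used here as the labels give them.

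KP replicate 2 stood apart from the other tumors. It had the lowest value of 6 of the 10 members (*Krt7*, *Krt8*, *Krt18*, *Krt19*, *Cldn4* and *Cldn18*) and the highest of *Cldn3*. Over all genes tested, its mean correlation with the other tumors was 0.912, the lowest of the 12, against 0.927 to 0.953 for the rest. Its markers of alveolar type 1 cells summed to 190 CPM, against 676 to 2835 CPM in the other 11 tumors. The main log2 fold changes of members that involve KP are therefore also given without this tumor. The lists of other genes and markers are given with it only. By the mouse numbers, KP replicates 1 and 2 came from 1 animal, yet differed 6.25-fold in *Krt7*, 2.69-fold in *Krt18* and 9.90-fold in *Cldn18*.

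*Krt7*, a type II keratin of glandular and airway epithelium, was measured at 892, 143 and 952 CPM in KP replicates 1 to 3, at 1376, 623 and 1588 CPM in KP-PPARαΔ13, at 661, 1188 and 254 CPM in KPG1, and at 574, 389 and 775 CPM in KPG1-PPARαΔ13. Every group overlapped every other, and the highest tumor exceeded the lowest 11.1-fold.

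*Krt8*, the type II keratin found in nearly all simple epithelia, was at 1255, 512 and 1217 CPM in KP, 1595, 954 and 1487 CPM in KP-PPARαΔ13, at 1025, 1380 and 701 CPM in KPG1, and 1085, 795 and 1257 CPM in KPG1-PPARαΔ13. Its range was 3.12-fold, the narrowest of the 4 keratins. The same tumors were low as for *Krt7*, namely KP replicate 2, KPG1 replicate 3 and KPG1-PPARαΔ13 replicate 2.

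*Krt18*, the usual type I partner of Krt8, was at 1323, 491 and 1196 CPM in KP, 1876, 878 and 2011 CPM in KP-PPARαΔ13, at 1251, 1654 and 786 CPM in KPG1, and 1054, 730 and 1157 CPM in KPG1-PPARαΔ13. The groups again overlapped throughout, over a 4.09-fold range.

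*Krt19*, a short type I keratin that lacks the tail domain of the others, was at 279, 162 and 416 CPM in KP, 653, 494 and 695 CPM in KP-PPARαΔ13, at 213, 459 and 194 CPM in KPG1, and 489, 325 and 494 CPM in KPG1-PPARαΔ13. Here all 3 KP-PPARαΔ13 tumors lay above all 3 KP tumors. KPG1-PPARαΔ13 overlapped KPG1, whose replicate 2 lay among the doxycycline tumors.

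*Cldn2*, the cation pore, was at 78.5, 130.5 and 130.02 CPM in KP, 184, 215 and 159 CPM in KP-PPARαΔ13, at 54.4, 188 and 94.1 CPM in KPG1, and 176, 328 and 392 CPM in KPG1-PPARαΔ13. KP-PPARαΔ13 lay above KP in every tumor. KPG1-PPARαΔ13 overlapped KPG1 only through KPG1 replicate 2, and its mean was the highest of the 4 groups.

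*Cldn4*, a sealing claudin, was at 42.9, 30.5 and 112 CPM in KP, 332, 167 and 182 CPM in KP-PPARαΔ13, at 127, 121 and 31.2 CPM in KPG1, and 135, 69.5 and 179.8 CPM in KPG1-PPARαΔ13. KP-PPARαΔ13 lay above KP without overlap, and its replicate 1 was the highest of all. The range over the 12 tumors was 10.9-fold.

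*Cldn7*, which binds Epcam, was at 95.9, 103 and 113 CPM in KP, 159, 159 and 133 CPM in KP-PPARαΔ13, at 74.0, 116 and 96.1 CPM in KPG1, and 108, 106 and 135 CPM in KPG1-PPARαΔ13. Its range was only 2.15-fold, and KP-PPARαΔ13 was above KP in all tumors.

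*Cldn3*, a sealing claudin and the neighbour of *Cldn4*, was at 83.6, 164 and 153 CPM in KP, 98.7, 147 and 96.7 CPM in KP-PPARαΔ13, at 116, 136 and 135 CPM in KPG1, and 96.3, 129.6 and 139.5 CPM in KPG1-PPARαΔ13. It varied least of all members, 1.96-fold, with all groups overlapping.

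*Cldn12*, a claudin linked to calcium transport, was at 65.9, 65.1 and 52.6 CPM in KP, 94.6, 96.0 and 59.8 CPM in KP-PPARαΔ13, at 74.4, 69.6 and 71.2 CPM in KPG1, and 35.0, 59.0 and 62.4 CPM in KPG1-PPARαΔ13. All 3 KPG1 tumors lay above all KP and above all KPG1-PPARαΔ13 tumors.

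*Cldn18* was at 878, 88.6 and 582 CPM in KP, 562, 452 and 446 CPM in KP-PPARαΔ13, at 588, 579.8 and 532 CPM in KPG1, and 1119.5, 604 and 552 CPM in KPG1-PPARαΔ13. The 12.6-fold range rested on KP replicate 2, since the other 11 tumors lay between 446 and 1119.5 CPM.

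**Figure D1:**
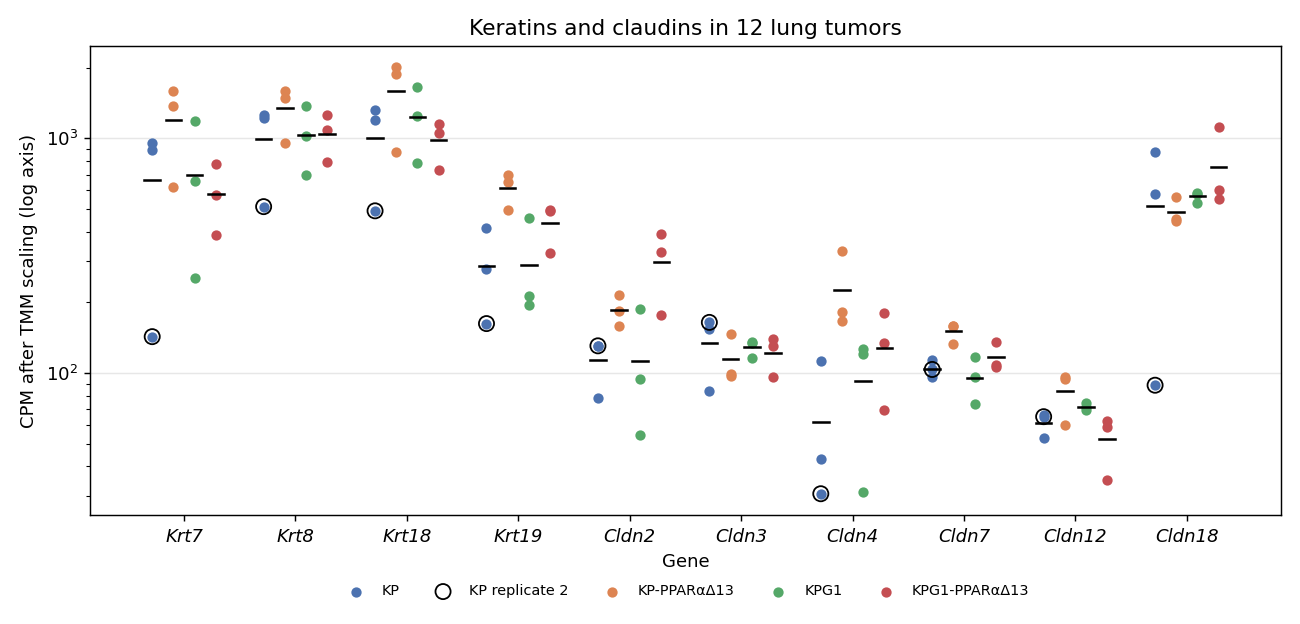
CPM after TMM scaling (log axis) of the 10 genes, 1 point per tumor, 4 groups of 3 tumors, with the group mean as a bar and KP replicate 2 circled. KP replicate 2 is the lowest point for 6 genes, and the KP-PPARαΔ13 points lie above all KP points for *Krt19*, *Cldn2*, *Cldn4* and *Cldn7*.

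To ask whether the dominant negative receptor changed these genes in tumors wild type for Glut1, KP-PPARαΔ13 was compared with KP. Of the 10 members 8 were higher and 2 lower, where 49.2% of all genes were higher, with a median log2 fold change of 0.60 against -0.01 over all 16527 genes tested. No member passed the adjusted threshold of 0.05 in edgeR, where 0.00605% of all genes did, nor in DESeq2 (2.17% of all genes) or limma voom, and 3 had an unadjusted p under 0.05 in edgeR, as had 11.4% of all genes. In 4 members (*Krt19*, *Cldn2*, *Cldn4* and *Cldn7*) the groups did not overlap, all with KP-PPARαΔ13 higher, a pattern that 6.55% of all genes showed, while 6.7% were lower without overlap and 13.3% differed in either direction.

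*Cldn4* had the largest difference, 227 ± 91.7 CPM (SD, n = 3 tumors) against 61.9 ± 44.0 CPM, a log2 fold change of 1.87 (SE 0.609, edgeR adjusted p = 0.328). *Krt19* differed by 1.11 (SE 0.393, edgeR adjusted p = 0.351), from 286 ± 127 to 614 ± 106 CPM. Both genes had no overlap between the groups. *Cldn7* differed by 0.53 (SE 0.192, edgeR adjusted p = 0.362), a small difference between groups that were tight. *Krt7* differed by 0.85 (SE 0.678, adjusted p = 0.684) and *Cldn2* by 0.72 (SE 0.419, adjusted p = 0.555). The 5 remaining members lay between -0.23 (*Cldn3*) and 0.66 (*Krt18*). Sex was uneven between these groups, with 3 females in KP and 1 female and 2 males in KP-PPARαΔ13. With sex as a covariate, the smallest edgeR adjusted p of any member was 0.492.

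Without KP replicate 2 the keratin differences shrank, *Krt7* to 0.37, *Krt8* from 0.44 to 0.12, *Krt18* to 0.33 and *Krt19* to 0.82, while *Cldn4* remained at 1.55, *Cldn2* at 0.83 and *Cldn7* at 0.52, with adjusted p of 0.712 or more in edgeR for these members. The members without overlap were then 5, against 19.1% of all genes, since *Cldn18* became lower in every KP-PPARαΔ13 tumor (log2 fold change -0.59). *Cldn4* depended most on KP replicate 3, the highest KP tumor, without which its difference was 2.63 (edgeR adjusted p = 0.185) and that of KPG1 against KP 1.34 (adjusted p = 0.577). Without KP-PPARαΔ13 replicate 1, the tumor whose *Ppara* count was not raised, *Cldn4* stood at 1.49, *Krt19* at 1.06, *Cldn2* at 0.73 and *Cldn7* at 0.49, with edgeR adjusted p of 0.562 or more. Markers of other cell types also leaned to 1 side between these groups. By log2 fold change, 5 of 6 fibroblast markers were higher in KP-PPARαΔ13, as were 4 of 5 erythroid and all 3 mesothelial markers tested. All 6 alveolar type 1 and all 6 endothelial markers were higher (medians 0.49 and 0.20), while 7 of 8 alveolar type 2 and 5 of 6 airway markers were lower (medians -0.44 and -0.45). None of these markers passed in edgeR or limma voom, and DESeq2 passed 1 fibroblast and 1 mesothelial marker (2.17% of all genes). An unadjusted edgeR p under 0.05 was found for 2 fibroblast, 4 erythroid, 1 mesothelial and 1 airway marker. It was found for 0 alveolar or endothelial markers, and for 11.4% of all genes. The fibroblast markers summed to 227 to 376 CPM in KP-PPARαΔ13 and 86.3 to 196 CPM in KP, and the erythroid ones to 850 to 1320 and 319 to 765 CPM. The mesothelial markers summed to 159 to 295 and 2.94 to 43.1 CPM, nearly all of it *Msln* (158 to 294 and 2.36 to 42.8 CPM), while *Upk3b* was at 1.90 CPM or less in these 6 tumors. The alveolar type 1 markers summed to 1545 to 2835 CPM in KP-PPARαΔ13 and 190 to 2330 CPM in KP, which overlap. The part of these markers in the members' differences was not tested.

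In tumors with Glut1Fl/Fl, the same question was asked of KPG1-PPARαΔ13 against KPG1. Here 6 members were higher and 4 lower, where 52.2% of all genes were higher, with a median of 0.15 against 0.02 over all genes. None passed the adjusted threshold in edgeR (0.00605% of all genes), DESeq2 or limma voom, and *Cldn2* alone had an unadjusted p under 0.05 in edgeR (10.8% of all genes). *Cldn2* stood at 299 ± 110.5 CPM (SD, n = 3 tumors) against 112 ± 68.4 CPM, a log2 fold change of 1.41 (SE 0.425, edgeR adjusted p = 0.420). Sex was uneven here, with 3 males in KPG1 and 2 females and 1 male in KPG1-PPARαΔ13. Over the alternatives, the adjusted p of *Cldn2* ran from 0.0914 (DESeq2) to 0.999 (edgeR with sex as a covariate). *Krt19* differed by 0.60 (SE 0.390, adjusted p = 0.604) and *Cldn4* by 0.46 (SE 0.591, adjusted p = 0.801), both with overlapping groups. Groups did not overlap for *Cldn12* alone, lower with doxycycline by a log2 value of -0.46 (SE 0.248, adjusted p = 0.531), where 9.41% of all genes were lower without overlap and 20.6% differed in either direction. All 8 alveolar type 2 and all 6 alveolar type 1 markers were lower in KPG1-PPARαΔ13. None passed in edgeR or limma voom, and DESeq2 passed 1 alveolar type 2 marker (1.07% of all genes). An unadjusted edgeR p under 0.05 was found for 3 alveolar type 2 and 0 alveolar type 1 markers (10.8% of all genes). The alveolar type 2 markers summed to 25484 to 40636 CPM in KPG1-PPARαΔ13 and 47924 to 77168 CPM in KPG1, and the alveolar type 1 markers to 676 to 1102 and 1786 to 2547 CPM. All 6 endothelial markers were also lower (median -0.69), and 4 of 5 erythroid markers were higher, summing to 731 to 1421 against 629 to 962 CPM. Of the latter *Hba-a2* passed in edgeR (adjusted p = 0.0105), at 29.1 to 122 CPM in KPG1-PPARαΔ13 and 0.103 to 0.529 CPM in KPG1, and *Hbb-bs* had the next largest log2 fold change, 1.01 (adjusted p = 0.492). *Hba-a2* is a near-identical copy of *Hba-a1*, so its count is uncertain. It also passed in edgeR for KPG1 against KP, where it was lower (adjusted p = 0.0248, 13.1 to 26.2 CPM in KP, with *Hbb-bt* next at 0.81), and for doxycycline averaged over genotypes (adjusted p = 0.00429, with *Hbb-bs* next at 1.24). The part of all these markers in the differences of *Cldn2* and *Cldn12* was not tested.

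KPG1 was compared with KP to ask for an effect of the Glut1 deletion on the regular diet. The members were close to level, 7 higher and 3 lower where 46.9% of all genes were higher, with a median of 0.07 against -0.03 over all genes. None passed in edgeR (0.0363% of all genes), DESeq2 or limma voom, and 0 had an unadjusted p under 0.05 in edgeR (6.23% of all genes). The largest log2 fold changes were 0.59 for *Cldn4* (SE 0.592, adjusted p = 0.875) and 0.29 for *Krt18* (SE 0.431, adjusted p = 0.919). *Cldn12* was higher in KPG1 without overlap at 71.7 ± 2.46 against 61.2 ± 7.46 CPM (0.23, SE 0.248, adjusted p = 0.887), as 4.82% of all genes were, while 5.13% were lower and 9.95% differed in either direction. Leaving out KP replicate 2 placed all 4 keratins below KP, from -0.03 for *Krt18* to -0.40 for *Krt7*, and *Cldn4* at 0.26. Of the members 4 were then higher and 6 lower. This comparison shares its KP tumors with the first, and sex separates its groups completely, so that sex and the deletion cannot be told apart in it.

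Under doxycycline, KPG1-PPARαΔ13 was compared with KP-PPARαΔ13. The members leaned lower, 7 against 3, where 50.5% of all genes were higher, with a median of -0.43 against 0.01 over all genes. None passed in edgeR (0.0303% of all genes), DESeq2 or limma voom, and *Cldn12* alone had an unadjusted edgeR p under 0.05 (9.69% of all genes). *Krt7* differed by -1.05 (SE 0.681, adjusted p = 0.620), *Cldn4* by -0.83 (SE 0.593, adjusted p = 0.644), *Krt18* by -0.70 (SE 0.433, adjusted p = 0.607) and *Cldn12* by -0.68 (SE 0.249, edgeR adjusted p = 0.492). No member's groups were free of overlap, which 17.6% of all genes were, 10.3% higher and 7.25% lower.

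**Figure D2:**
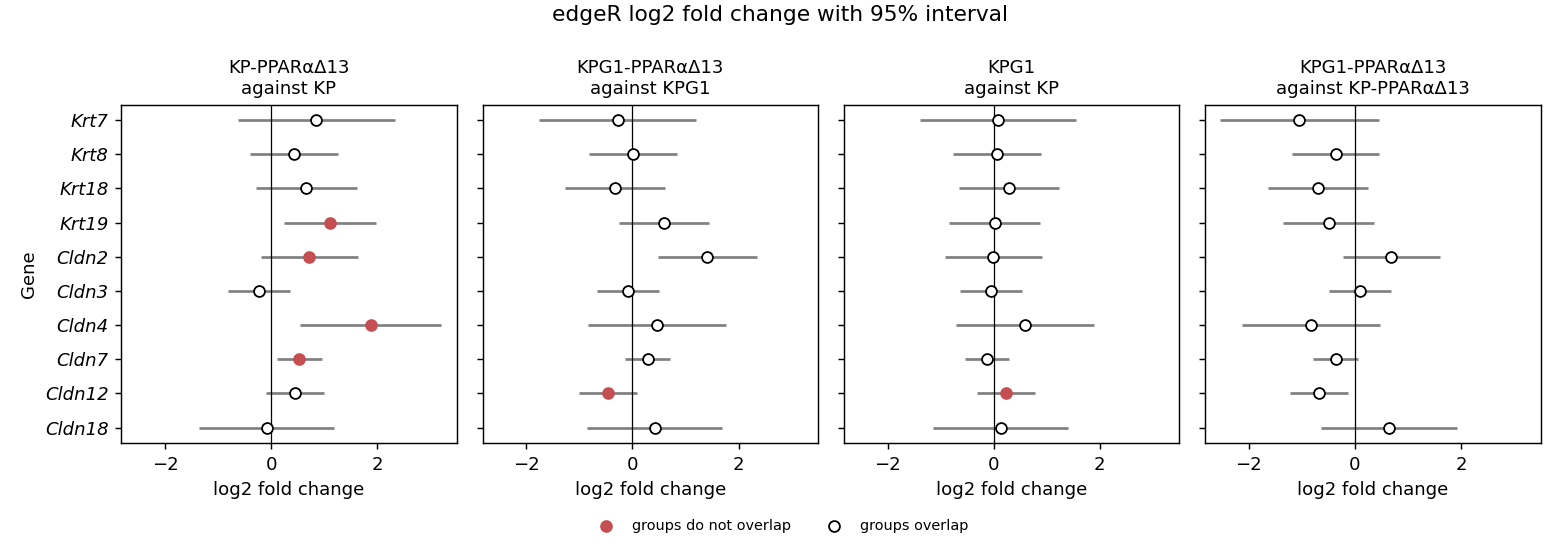
edgeR log2 fold changes of the 10 genes (points) with 95% intervals (lines) in 4 comparisons of 3 with 3 tumors, filled where the groups did not overlap in CPM. The intervals of *Krt19*, *Cldn4* and *Cldn7* in the first panel, of *Cldn2* in the second and of *Cldn12* in the fourth lie to 1 side of 0 before any adjustment over genes.

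The response to doxycycline was then compared between the genotypes by an interaction term. No member passed in edgeR, as 0% of all genes did, nor in DESeq2 (1.67% of all genes) or limma voom, and *Cldn12* alone had an unadjusted edgeR p under 0.05 (11.8% of all genes). With sex as a covariate 0 members had such a p. The same held without KP-PPARαΔ13 replicate 1, without KP-PPARαΔ13 replicate 2 and without KPG1-PPARαΔ13 replicate 1. The interaction term was above 0 in 3 members and below 0 in 7, where 51.7% of all genes were above. The largest terms were -1.41 for *Cldn4* (SE 0.838, adjusted p = 0.511), -1.13 for *Krt7* (SE 0.955, adjusted p = 0.658) and -0.99 for *Krt18* (SE 0.610, adjusted p = 0.525), negative where the response was smaller in tumors with Glut1Fl/Fl. *Cldn12* stood at -0.91 (SE 0.351, edgeR adjusted p = 0.384), its value being 0.45 in KP and -0.46 in KPG1. The 95% intervals were wide, from -3.25 to 0.42 for *Cldn4*, and without KP replicate 2 the terms were -1.08 for *Cldn4*, -0.65 for *Krt7*, -0.66 for *Krt18* and -0.95 for *Cldn12*. Without KP replicate 3 that of *Cldn4* was -2.17. Within the interval of *Cldn4* with all tumors, equal responses in both genotypes and a much smaller one in KPG1 both lie.

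Averaged over both genotypes, 8 members were higher with doxycycline and 2 lower, where 51.1% of all genes were higher. The tumors differed by 1.17 in *Cldn4* (SE 0.422, edgeR adjusted p = 0.396), 1.07 in *Cldn2* (SE 0.298, edgeR adjusted p = 0.297) and 0.85 in *Krt19* (SE 0.277, edgeR adjusted p = 0.357). *Cldn7* differed by 0.41 (SE 0.136, edgeR adjusted p = 0.361). No member passed in edgeR (0.0182% of all genes) or limma voom, while these 4 had an unadjusted p under 0.05, as had 10.1% of all genes. DESeq2 passed 1 member, *Cldn2* (adjusted p = 0.0484), where 1.65% of all genes passed. Over the 20 alternatives for *Cldn2* the adjusted p ran from 0.0484 to 0.547. No member separated the 6 tumors with doxycycline from the 6 without, which 0.49% of all genes did, 0.266% higher and 0.224% lower. *Krt7*, *Krt8* and *Krt18* had averages of 0.29, 0.23 and 0.17, each smaller than its SE. Without KP replicate 2 these were 0.05, 0.07 and 0.001, and *Cldn4*, *Cldn2*, *Krt19* and *Cldn7* stood at 1.00, 1.12, 0.71 and 0.40. Averaged over both diets, no member passed for genotype in edgeR (0.0484% of all genes), DESeq2 or limma voom, 0 had an unadjusted edgeR p under 0.05 (4.53% of all genes), and none separated the genotypes (0.188% of all genes, 0.0968% higher and 0.0908% lower). Of the members 3 were higher and 7 lower, where 47.8% of all genes were higher. The largest differences were -0.48 for *Krt7* (SE 0.477, adjusted p = 0.980), 0.39 for *Cldn18* (SE 0.410, adjusted p = 0.981) and 0.34 for *Cldn2* (SE 0.295, adjusted p = 0.976). Without KP replicate 2 they were -0.72, 0.14 and 0.40.

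Over the 12 tumors, *Krt7*, *Krt8* and *Krt18* rose and fell together. Pearson's r of log2 CPM was 0.984 for *Krt7* and *Krt8* (Spearman's rho 0.944, permutation p = 1e-05, the smallest that 100000 permutations give, two-sided), 0.958 for *Krt8* and *Krt18* (rho 0.916) and 0.958 for *Krt7* and *Krt18* (rho 0.951). Without KP replicate 2 and KPG1 replicate 3, the tumors farthest from the median, these values were 0.953, 0.939 and 0.955. As deviations from the group means, which take out any difference between groups, they were 0.986, 0.978 and 0.964. The 3 genes are also neighbours on chromosome 15, and those deviations leave only differences between tumors of 1 group.

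*Krt19* was less close to the other keratins. Its r was 0.805 with *Krt7*, 0.807 with *Krt8* and 0.707 with *Krt18*, and 0.548, 0.564 and 0.438 without the 2 tumors farthest from the median, so that these relations rest in part on those tumors. Within groups, as deviations from the group means, its r was 0.881, 0.877 and 0.831. *Krt19* followed *Cldn4* (r = 0.859, rho 0.923, permutation p = 0.000580, and 0.707 without 2 tumors) and *Cldn7* (r = 0.782, rho 0.867, and 0.877 without them), although as deviations these values were 0.734 and 0.496. The relation to *Cldn4* was not particular to *Krt19*. As deviations, *Cldn4* had r of 0.761 with *Krt7*, 0.764 with *Krt8* and 0.703 with *Krt18*. Among the claudins, *Cldn2* and *Cldn7* had r = 0.692 (rho 0.727, permutation p = 0.0128) over all tumors, 0.481 without 2 tumors and 0.860 as deviations.

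*Cldn3* leaned the other way from the keratins, with r of -0.52 to *Krt7*, -0.56 to *Krt8* and -0.60 to *Krt18*, of which the last had rho = -0.50 and was -0.37 without 2 tumors. As deviations these were -0.47, -0.52 and -0.61, and none passed (adjusted permutation p of 0.564, 0.490 and 0.405). *Cldn3* and *Cldn4*, neighbours on chromosome 5, had r = -0.24. *Cldn12* had no r beyond 0.31 in size with any member in log2 CPM over all tumors. As deviations its r ran from -0.38 (*Krt19*) to 0.36 (*Cldn2*), none past the threshold. *Cldn18* had r = 0.619 with *Krt8* but rho of 0.0979, and -0.127 without KP replicate 2 and KPG1 replicate 3, so that this relation rests on those tumors. Of all 45 pairs, 12 had a permutation p for Pearson's r that passed 0.05 after adjustment over the pairs, namely all 6 of keratin with keratin, 5 of 24 of keratin with claudin, and 1 of 15 of claudin with claudin. As deviations 7 did, the 6 keratin pairs and *Cldn2* with *Cldn3* (r = 0.671). The genes were chosen together, and share library and depth, so these counts describe the set.

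**Figure D3:**
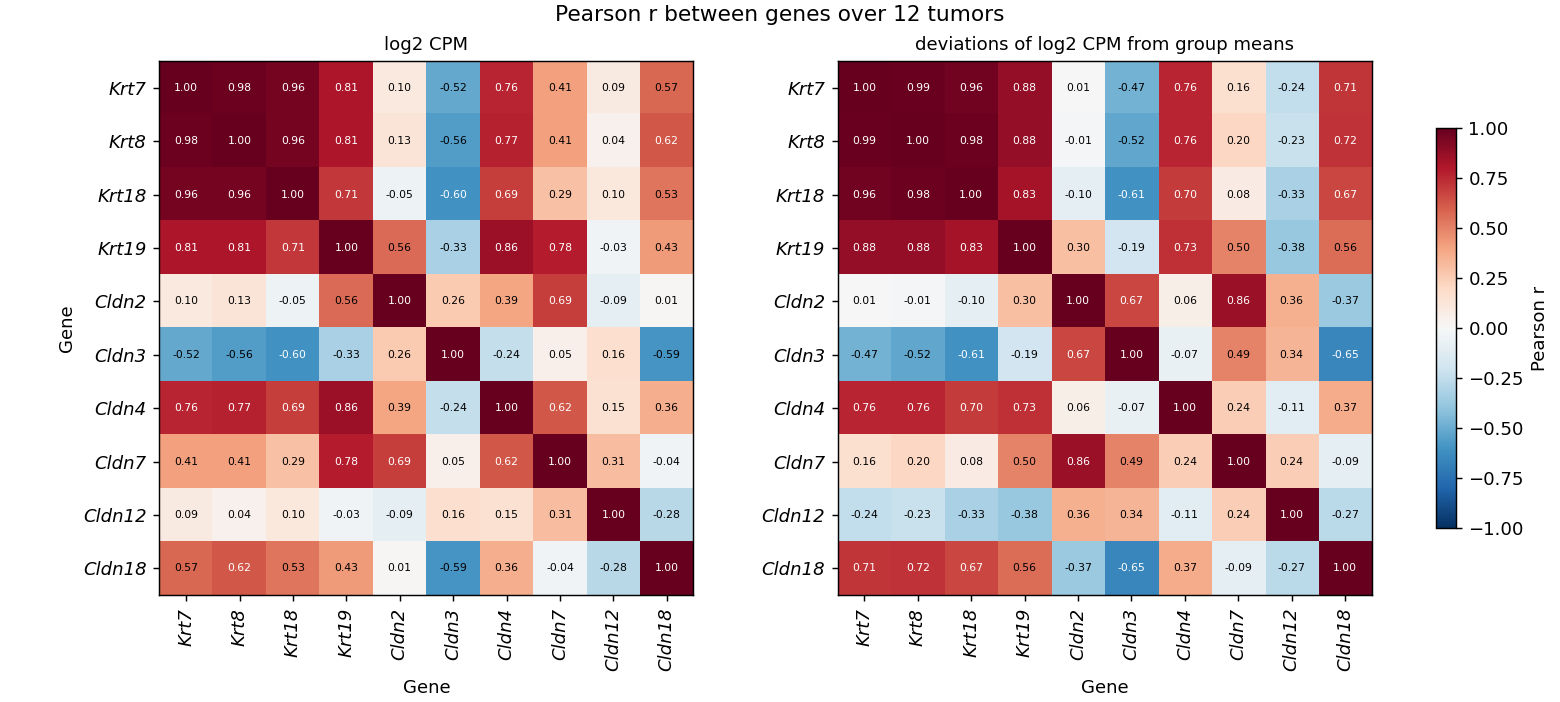
Pearson's r between the 10 genes over 12 tumors, from log2 CPM (left) and from deviations of log2 CPM from the group means (right), in color and as numbers. *Krt7*, *Krt8* and *Krt18* form a block of 0.95 or more in both, and *Cldn3* is negative to all 4 keratins in both.

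**Figure D4:**
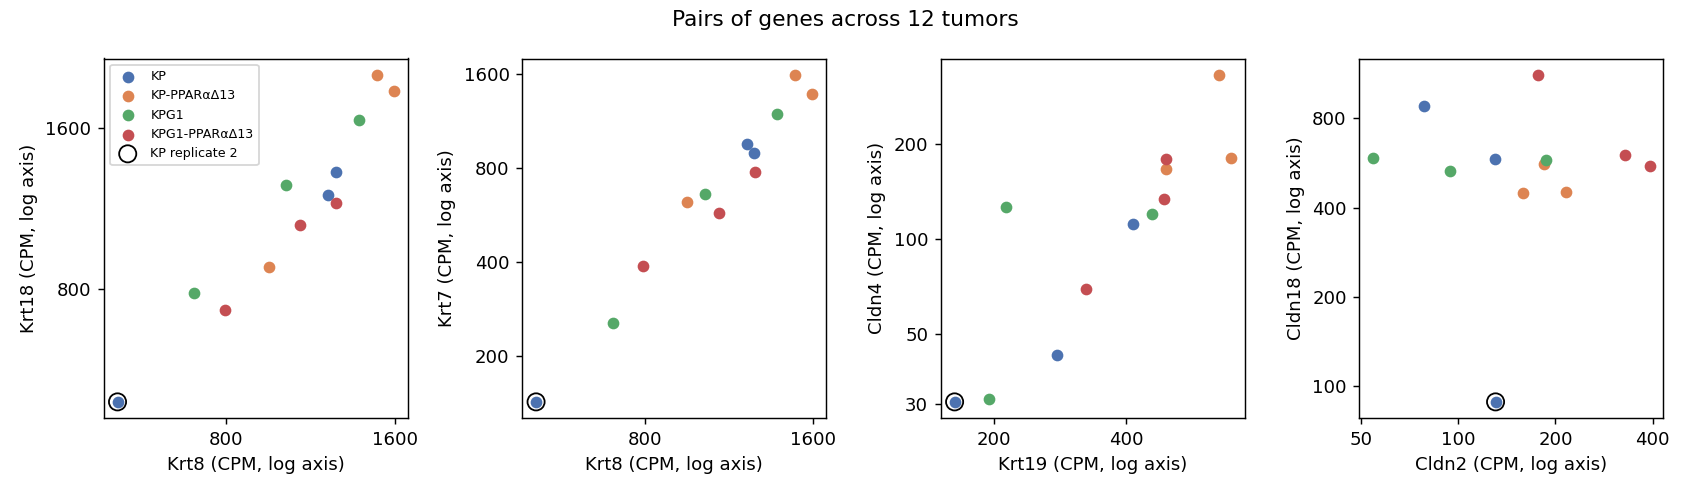
CPM of 4 pairs of genes (both axes log), 1 point per tumor, colored by group, with KP replicate 2 circled. *Krt8* against *Krt18* and *Krt7* lie near a line, *Krt19* against *Cldn4* is looser, and *Cldn2* against *Cldn18* shows no trend (r = 0.01).

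The genes outside the set whose log2 CPM was closest to each member over the 12 tumors are given as a description. They included *Krt80* for *Krt7* (r = 0.947), *Thsd4* for *Krt8* (0.937), and *Grasp* (0.951) and *Trib1* (0.942) for *Krt18*. For *Krt19* they included *Fosl1*, an AP-1 subunit (0.944). *Cldn4* was closest to *Rhoa*, a small GTPase (0.956), and *Rab31* (0.946), *Cldn7* to *Vps37b* (0.952) and *Vcam1* (0.937), and *Cldn2* to *Usp19* (0.937) and *Fmn1* (0.907). *Cldn3* was closest to *Tmem231* (0.920) and *Sms* (0.880), *Cldn12* to *Morc1* (0.916) and *Pxn* (0.906), and *Cldn18* to *Veph1* (0.933) and *2610035D17Rik* (0.910).

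By the median fold, tumors that appear to share a mouse were closer to each other in some of these genes and farther apart in others. Over the 3 such pairs, the median fold between the 2 tumors was 1.80 for *Krt7*, against 2.21 over the 9 pairs of 1 group from separate mice, 1.35 against 1.56 for *Krt8* and 1.34 against 2.59 for *Cldn4*. For *Cldn2* it was 2.22 against 1.36 and for *Cldn18* 2.03 against 1.24, so that the median was larger for tumors of 1 mouse there. The 3 *Cldn18* pairs were uneven, at 9.90 (with KP replicate 2), 2.03 and 1.01, and the pairs from separate mice ran from 1.01 to 6.57.

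Levels of different genes were compared as TPM, which divides counts by gene length. *Krt18* was highest at 2843 ± 1018 TPM (SD over 12 tumors), followed by *Krt8* at 1929 ± 529, *Krt19* at 749 ± 315, *Cldn18* at 449 ± 198, *Krt7* at 376 ± 202, *Cldn3* at 342 ± 80.6, *Cldn4* at 241 ± 165, *Cldn7* at 207 ± 47.8, *Cldn2* at 185 ± 105 and *Cldn12* at 54.8 ± 14.5 TPM. The type I chains Krt18 and Krt19 and the type II chain Krt8 thus held the top of the order. *Krt18* exceeded *Krt8*, and *Krt8* exceeded *Krt19*, in all 12 tumors. The neighbours *Cldn18* and *Krt7*, and *Krt7* and *Cldn3*, kept that order in 7 of 12 tumors each, *Cldn4* and *Cldn7* in 8, and for those 3 pairs the mean log2 ratio was smaller than its SD. The same holds for *Krt19* over *Cldn18* (9 of 12 tumors), *Cldn3* over *Cldn4* (10 of 12) and *Cldn7* over *Cldn2* (10 of 12). With the length of the longest coding transcript in place of all exons, *Krt7* (4094 bp in place of 7049 bp) passed *Cldn18*, and *Cldn7* passed *Cldn4*.

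Ratios within a tumor showed the balance of chains and of claudins, and were chosen after their values were seen. How often ratios of other gene pairs separate the groups was not tested, so no share over all genes stands beside them. *Krt18* to *Krt8* in TPM stayed between 1.25 and 1.84 in all tumors, at 1.53 to 1.66 in KPG1 and 1.25 to 1.32 in KPG1-PPARαΔ13, which did not overlap. In KP it was 1.31 to 1.44 and in KP-PPARαΔ13 1.25 to 1.84, which overlapped. *Krt19* to *Krt8* was 0.234 to 0.361 in KP and 0.219 to 0.351 in KPG1, and 0.432 to 0.547 in KP-PPARαΔ13 and 0.415 to 0.476 in KPG1-PPARαΔ13. Both doxycycline groups thus lay above both regular diet groups without overlap in that ratio, while *Krt8* itself overlapped in all groups. *Cldn4* to *Cldn3* ran from 0.129 in KP replicate 2 to 2.33 in KP-PPARαΔ13 replicate 1, with 0.785 to 2.33 in KP-PPARαΔ13 above 0.129 to 0.507 in KP. *Cldn18* to *Cldn2* ran from 0.507 in KP replicate 2 to 8.34 in KP replicate 1, which appear to be tumors of 1 mouse.

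Most other genes of both families were low. Of 47 other keratin genes in the table, 8 had no count, 16 passed the filter and 4 had a mean of at least 10 CPM, which were *Krt23* (83.1), *Krt79* (56.5), *Krt20* (19.5) and *Krt80* (16.7). Of 19 other claudin genes, 3 had no count, 8 passed the filter and 3 had a mean of at least 10 CPM, *Cldn25* (41.1), *Cldn6* (31.1) and *Cldn1* (11.2). Per length, *Krt23* at a mean of 181 TPM was near *Cldn2*, and *Cldn6* (59.2 TPM) and *Cldn25* (55.6 TPM) were near *Cldn12*. In KP-PPARαΔ13 against KP, 11 of the 16 keratins were higher and 5 lower, with a median log2 fold change of 1.14, and 6 of the 8 claudins higher and 2 lower, with a median of 0.18. None passed in edgeR or limma voom, 6 keratins and 1 claudin had an unadjusted edgeR p under 0.05 (11.4% of all genes), and DESeq2 passed 2 of the keratins and none of the claudins (2.17% of all genes). Of these, *Krt20*, a keratin of gut epithelium named here after its values were seen, was at 1.00 to 6.23 CPM in KP and 29.7 to 58.3 CPM in KP-PPARαΔ13 (3.36, SE 1.09, edgeR adjusted p = 0.327). *Krt79* was the most uneven, from 1.64 CPM in KP replicate 2 to 329 CPM in KP replicate 1. *Cldn1* had its highest value, 36.0 CPM, in KP replicate 2, where *Cldn4* and *Cldn18* were lowest.

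**Figure D5:**
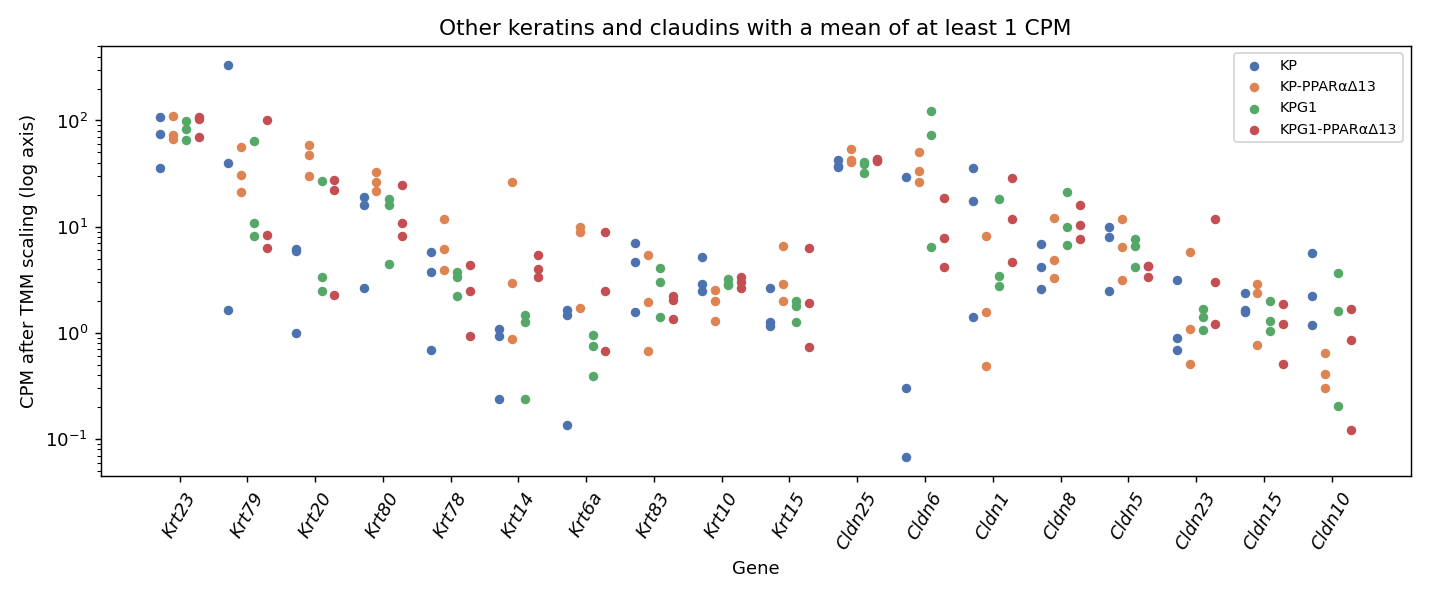
CPM after TMM scaling (log axis) of the other 10 keratins and 8 claudins with a mean of at least 1 CPM, 1 point per tumor, colored by group. *Cldn25* stays between 32.2 and 54.4 CPM, and *Krt20* lies at 29.7 to 58.3 CPM in KP-PPARαΔ13 and at 6.23 CPM or less in KP.

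Junction genes outside the claudins were followed as lists, and in the first comparison their values leaned the same way. Of 20 measured tight junction partners such as occludin, Tjp proteins and cingulin, 14 were higher and 6 lower in KP-PPARαΔ13 than in KP, with a median of 0.24, and their summed level was 2731 to 3246 against 1922 to 2726 CPM. Of 14 adherens junction and desmosome genes, among them E-cadherin and the plakophilins, 12 were higher and 2 lower, with a median of 0.39 and sums of 5555 to 7415 against 4214 to 5307 CPM. None of either list passed in edgeR, DESeq2 or limma voom, with 1 and 3 genes at an unadjusted edgeR p under 0.05, where 11.4% of all genes were. In KPG1-PPARαΔ13 against KPG1 the medians were 0.02 and 0.14, and none passed with any of the 3 tools, with 2 genes and 1 gene at an unadjusted edgeR p under 0.05 (10.8% of all genes). Of 14 epithelial transcription and splicing factors, 6 were higher and 8 lower in KP-PPARαΔ13 (median -0.20), and of 10 mesenchymal genes tested 8 were higher and 2 lower (median 0.56), none of them past the threshold with the 3 tools, and 0 and 1 at an unadjusted edgeR p under 0.05 (11.4% of all genes). All 6 gastric and intestinal genes tested were higher in KP-PPARαΔ13 than in KP (median 0.80) and 5 of 6 higher in KPG1-PPARαΔ13 than in KPG1 (median 0.49). None passed in edgeR or limma voom, 3 and 1 had an unadjusted edgeR p under 0.05 (11.4% and 10.8% of all genes), and DESeq2 passed 1 in the first of these comparisons (2.17% of all genes).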

How the data were processed

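The data are gene counts of 12 tumors. Per the labels and the study's methods, the libraries were made with a stranded mRNA kit, reads were trimmed with Cutadapt and aligned with HISAT2 to mm10, and the submitters' processing notes name featureCounts 1.4.4 and bcl2fastq 2.17. The deposited counts are whole reads per gene, not normalized, for 39017 genes, of which 13548 had no count in any tumor. The authors also deposited log2 CPM values, which were used only as an alternative for the correlations. The count columns of the 12 single files equal those of the combined table. The strand setting and the treatment of reads with several matches are not given in the sources used here.

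Total counts were 25263794 to 32654223, and counting error is small beside the spread between tumors (biological coefficient of variation 0.440). Genes were tested with edgeR 4.0.16 (R 4.3.3) quasi-likelihood tests on all 12 tumors in 1 fit with 4 group means, TMM scaling (factors 0.890 to 1.07), the filterByExpr filter, which left 16527 genes, and Benjamini-Hochberg adjustment over those at 0.05. DESeq2 1.42.0 and limma 3.58.1 voom, other scalings and filters, the compared groups alone, a sex term, a replicate block, tumors of 1 mouse summed and each tumor left out were alternatives. TPM used exon lengths from GENCODE M21. Correlations used log2 CPM (prior count 2) and two-sided tests of 100000 permutations, and deviations from group means used all 1296 permutations within groups. Scripts were tested on simulated data.

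The members, gene lists and tests were chosen with earlier results of these data known. In each comparison the members whose groups did not overlap and the 3 with the largest log2 fold change are named, the other members by range. Members with an unadjusted p under 0.05 were named in addition, after their values were seen. In other lists, the 2 genes with the largest log2 fold change are named where 1 passed, which held only for the erythroid markers, and other genes of lists were named after their values were seen. For the most alike genes, the 2 with the highest r were taken, of which some are not reported here. Some tumors of 1 group appear to come from 1 mouse, so p-values measure the spread between tumors, which is not throughout the spread between animals.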

Additional observations from a re-analysis of the deposited data

How the results depend on the processing

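Across the alternatives, the count of members past the threshold stayed at 0 in each of the 7 comparisons, except with DESeq2 for doxycycline averaged over genotypes, where it was 1 (*Cldn2*). With each tumor left out it ran from 0 to 0. The named log2 fold changes kept direction and side of the threshold in 206 values under other settings, that *Cldn2* value being the 1 exception, and in 287 with a tumor left out. The 1 exception there was *Krt18* in KPG1 against KP, 0.29 with all tumors, -0.034 without KP replicate 2 and at most 0.5556 (without KPG1 replicate 3). Member pairs past the threshold numbered 12, and 11 with the deposited log2 values, 9 over mouse means and 7 as deviations from group means. Of the pair correlations recomputed, 26 stayed past the threshold and 10 did not.

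Over all genes, edgeR passed 1, 1, 6, 5, 0, 3 and 8 genes in KP-PPARαΔ13 against KP, KPG1-PPARαΔ13 against KPG1, KPG1 against KP, KPG1-PPARαΔ13 against KP-PPARαΔ13, the interaction, doxycycline averaged and genotype averaged, and DESeq2 passed 378, 181, 59, 157, 291, 287 and 41. The cause was not tested. Under the other settings, the counts were 0 to 2, 0 to 2, 2 to 10, 2 to 10, 0 to 0, 2 to 13 and 3 to 12. With a replicate block no member passed (0), and the counts over all genes were 0, 2, 4, 3, 0, 4 and 5. Replicate numbers did not pair the tumors, since deviations correlated at -0.190 to 0.127 between tumors of the same number and at -0.232 to 0.230 otherwise. With 3 tumors a group the 95% intervals were wide, from -0.63 to 2.34 for *Krt7* and from 0.11 to 0.95 for *Cldn7* in KP-PPARαΔ13 against KP.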

Other observations

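Markers of other cell types are given as summed CPM over the tumors of each group, with no test of their part in the members' levels. Leukocyte markers summed to 713 to 2887 CPM in KP, 367 to 4260 in KP-PPARαΔ13, 447 to 2073 in KPG1 and 180 to 1979 in KPG1-PPARαΔ13. Nearly all of this was *Lyz2* (160.3 to 4218 CPM), which alveolar type 2 cells of the mouse also express, while *Ptprc* was at 31.5 CPM or less. Endothelial markers summed to 120 to 289, 89.8 to 559, 108 to 327 and 107 to 167 CPM in the same order, and airway markers to 86.1 to 136, 41.1 to 150, 167 to 401 and 86.9 to 256 CPM. The airway sum was thus higher in every KPG1 than in every KP tumor. By log2 fold change, 3 of the 6 airway markers were higher and 3 lower in KPG1, none past the threshold in edgeR. Gastric and intestinal genes summed to 800 to 1267, 1204 to 2469, 610 to 1211 and 1218 to 1580 CPM, so that KPG1-PPARαΔ13 lay above KPG1 in every tumor, by a narrow margin.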
